A study of Rattus norvegicus with 72 samples.

Results

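Solute carriers, whose gene symbols begin with Slc and a family number, are membrane proteins that move nutrients, metabolites, ions, metals and drugs. Some work by letting a substrate down its own gradient and others by coupling it to sodium, protons or the exchange of a second substrate. In the liver they bring in amino acids for protein and glutathione synthesis, pass glucose in and out of the cell, and take up organic anions and cations. The Slc25 family sits mainly in the inner mitochondrial membrane, where it exchanges nucleotides, phosphate and metabolic intermediates. Members were all genes on the array whose platform symbol starts with Slc and a digit, apart from Slc10a1 and Slc27a5, and the Slco carriers were not counted. The 270 probes that fit stand for 218 members of 9653 gene symbols, and the probes of 43 members with more than 1 were averaged. All 218 had values in at least 2 rats of every group and were tested among 17299 features. Slc7a6os and Slc4a1ap fit by name only, the first being named for its place beside Slc7a6 and the second for an adaptor protein that binds Slc4a1.

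Liver RNA of 36 rats given acetaminophen, an analgesic that injures the liver in overdose, was compared with pooled RNA of rats given vehicle. The drug was dosed by oral gavage in methyl cellulose at 50, 150, 1500 or 2000 mg/kg, and left liver lobes were taken 6, 24 or 48 h later, with 3 rats for each of the 12 groups. The labels seen here give no strain, sex or age. The titles write the unit mg/kg out for 150 mg/kg at 6 and 24 h and otherwise give mg, and the control is called a mock control for 150 mg/kg at 6 h and a sham or mock control at 24 h. Each rat was set against a control on 2 dye-swapped arrays. Outside those groups the titles name it as the pool of the rat's own dose and time. At 150 mg/kg and 24 h, 1 array of each rat names the sham and the other the mock control. Whether these are the same RNA is not stated. Every value is a log2 ratio of 1 treated rat over its control, called the pool below, averaged over both arrays. The direction, red over green, is likely from the software's convention and is not stated in the labels. With the opposite convention all signs below would turn. Because a pool is a single control sample, the p-values hold no spread among control rats, and unlike pools would show up in the contrasts between doses and times. Only ratios were used here, so levels of different transporters cannot be compared and the tissue can be checked only by ratio. The median of 6 measured hepatocyte markers lay between log2 -0.11 and 0.37 in all 12 groups, but single markers moved both ways. By the rule given below, Apoa1 and Hpx were called higher and Apoc3 and Ambp lower at 2000 mg/kg and 48 h (log2 -1.18 to 1.31). At 2000 mg/kg and 24 h Fgb and Hpx were called higher and Ttpa lower (-0.64 to 1.41).

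A member was called in a group when its mean differed from 0 at a Benjamini-Hochberg adjusted p below 0.05 over all features in limma and by at least 1.5-fold. The background is the percent of all 17299 features called by the same rule. Most calls lay at 1500 and 2000 mg/kg, less so on arrays scaled to equal spread. At 6 h, 1500 mg/kg gave 19 members (8.72%, background 7.01%), 9 higher (4.13%, background 4.2%) and 10 lower (4.59%, background 2.81%). At 6 h, 2000 mg/kg gave 22 members (10.1%, background 7.95%), 16 higher (7.34%, background 5.1%) and 6 lower (2.75%, background 2.85%). At 24 h the 1500 mg/kg group had 32 members (14.7%, background 9.88%), 20 higher (9.17%, background 7.14%) and 12 lower (5.5%, background 2.75%). The 2000 mg/kg group at 24 h had 42 members (19.3%, background 14.8%), 26 higher (11.9%, background 10.3%) and 16 lower (7.34%, background 4.43%). By 48 h, 1500 mg/kg gave 43 members (19.7%, background 18.7%), 27 higher (12.4%, background 13.3%) and 16 lower (7.34%, background 5.42%), and 2000 mg/kg gave 50 members (22.9%, background 22%), 23 higher (10.6%, background 12.8%) and 27 lower (12.4%, background 9.17%). Some of these shares lay above the background, as at 1500 mg/kg and 24 h, and others near it, and none of these differences was tested. After the arrays were scaled to equal spread the count at 1500 mg/kg and 24 h fell to 14 (6.42%, background 4.77%) and that at 2000 mg/kg and 24 h to 18 (8.26%, background 5.93%).

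The lower doses gave few calls. At 50 mg/kg there was 1 member (0.459%, background 1.42%), 1 higher (0.459%, background 1.36%) and 0 lower (0%, background 0.0578%) at 6 h. At 24 h there were 8 members (3.67%, background 3.56%), 2 higher (0.917%, background 2.1%) and 6 lower (2.75%, background 1.46%), and at 48 h 8 members (3.67%, background 3.96%), 3 higher (1.38%, background 2.2%) and 5 lower (2.29%, background 1.76%). At 150 mg/kg limma called 0 members at 6 h (background 0.0347%, 0.0231% higher and 0.0116% lower), with 22 at an unadjusted p below 0.05. It called 0 at 24 h (background 0.145%, 0.0925% higher and 0.052% lower), with 19 at an unadjusted p below 0.05. At 48 h there were 2 members (0.917%, background 1.49%), 2 higher (0.917%, background 1.38%) and 0 lower (0%, background 0.104%). In all, 87 of the 218 members were called in at least 1 of the 12 groups (39.9%, against 39% of all features), and all 87 were called at 1500 or 2000 mg/kg (37.3% of all features). At 50 and 150 mg/kg 14 members were called at least once (6.42%, against 7.75% of all features). The count at 1500 mg/kg and 6 h rose to 32 without rat 3030, and that at 50 mg/kg and 24 h fell to 4 without rat 3137 and rose to 12 without rat 3138. The count at 50 mg/kg and 6 h fell to 0 without rat 3125, and at 150 mg/kg and 48 h to 1 without any of its 3 rats. On scaled arrays the low doses gave more calls, 5 at 150 mg/kg and 6 h (2.29%, background 2.52%), 12 at 150 mg/kg and 24 h (5.5%, background 2.97%) and 4 at 50 mg/kg and 6 h (1.83%, background 2.99%), so that 150 mg/kg nearly equalled 1500 mg/kg at 24 h. The other scaled counts that moved by over 1.5 times were 7 higher and 5 lower at 1500 mg/kg and 6 h and 13 and 4 at 1500 mg/kg and 48 h, and the split at 50 mg/kg and 24 h became 3 and 4.

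**Figure D1:**
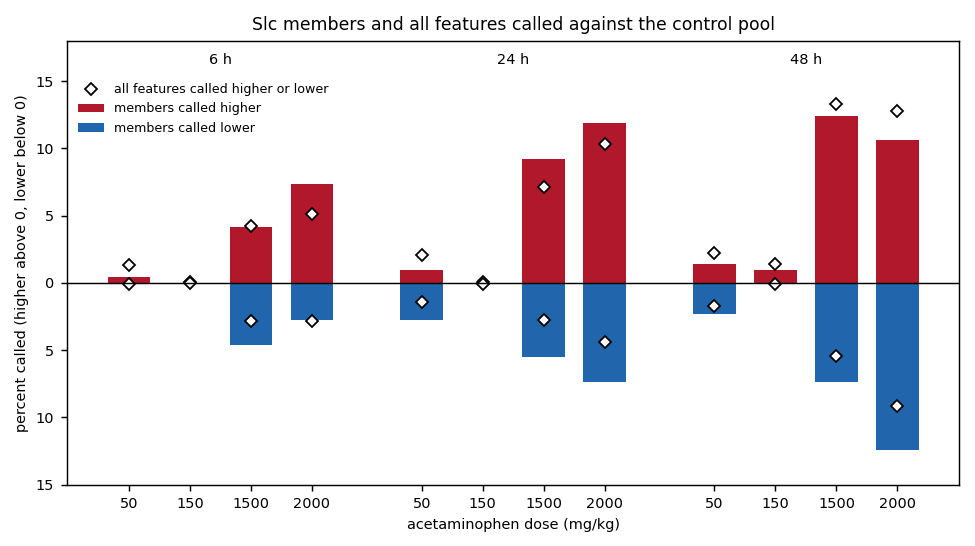
Percent of the 218 Slc members called higher (red bars, above 0) and lower (blue bars, below 0) than the control pool in each dose and time group, with open diamonds for the same percent over all 17299 features. Several blue bars reach past their diamonds, as at 1500 mg/kg and 24 h (5.5% of members against 2.75% of all features), and the red bars at 48 h stop short of theirs at 1500 and 2000 mg/kg (12.4% against 13.3% and 10.6% against 12.8%).

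By transported substrate, the members called in at least 1 group are read against the 39% of all features called so. Above that share were 14 of 22 mitochondrial Slc25 carriers (63.6%), 6 of 11 carboxylate carriers (54.5%), 18 of 35 amino acid carriers (51.4%), 2 of 4 peptide carriers (50%), 10 of 21 metal ion carriers (47.6%) and 9 of 20 nucleoside and nucleotide sugar carriers (45%). At or below it were 5 of 13 sugar carriers (38.5%), 7 of 20 organic ion carriers (35%), 6 of 21 others (28.6%, Slc7a6os and Slc4a1ap among the 21), 1 of 4 fatty acid carriers (25%), 3 of 15 vitamin and choline carriers (20%) and 6 of 32 inorganic ion carriers (18.8%). None of these shares was tested against the rest. The sugar and the vitamin and choline carriers were called in 1 direction only, lower. In the amino acid and Slc25 classes both directions occurred at each of the 3 times. Of the members, 131 were called in no group and 9 in 5 or more, which is 4.13% against 3.78% of all features. The latter were Slc12a2, with 7 groups, Slc39a2 and Slc29a1, with 6, and Slc38a2, Slc7a1, Slc6a6, Slc7a5, Slc39a13 and Slc25a33, with 5. RNA of a whole lobe was measured, so fewer cells of a type and less RNA per cell cannot be told apart in any of these values.

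At 6 h the highest amino acid carriers were Slc38a2 and Slc16a10, and both had left that level by 24 h. Slc38a2 is the sodium-coupled neutral amino acid carrier SNAT2, known to be induced when cells lack amino acids. Its 3 rats stood at log2 2.52, 2.28 and 2.23 at 1500 mg/kg and at 2.49, 3.87 and 3.51 at 2000 mg/kg, above all 6 rats at 50 and 150 mg/kg. The means were 5.07-fold (log2 2.34 ± 0.15 (SD, n = 3), adjusted p = 1.02e-09) and 9.79-fold (log2 3.29 ± 0.72 (SD, n = 3), adjusted p = 6.64e-13) over the pool, and the latter is the largest rise of any member in any group. The difference between these doses did not pass the test (log2 0.95 ± 0.27, SE, adjusted p = 0.0783). At 24 h Slc38a2 stood at 1.25 ± 0.32 and 1.27 ± 0.38, both called (adjusted p = 1.12e-05 and 5.05e-06), and at 48 h its means were -0.03 and 0.48, neither called. The falls from 6 to 24 h (log2 -1.56 ± 0.19, SE, adjusted p = 3.85e-07) and from 24 to 48 h (log2 -1.04 ± 0.19, SE, adjusted p = 0.00018) passed. At 50 mg/kg the same gene stood at 0.60, 0.57 and 0.71 at 6 h, not called, and at -0.69, -1.07 and -0.39 at 48 h, called lower (adjusted p = 0.0104). Slc16a10, the aromatic amino acid carrier TAT1, stood at 1.87, 1.78 and 2.41 at 1500 mg/kg and at 2.14, 2.54 and 2.85 at 2000 mg/kg at 6 h, with no overlap with the lower doses. These are 4.06-fold and 5.69-fold (adjusted p = 2.4e-10 and 1.92e-12). It returned to -0.26 and 0.19 at 24 h (log2 -2.30 ± 0.15, SE, adjusted p = 1.42e-11) and was lower than the pool at 48 h, at -0.79 ± 0.20 and -0.91 ± 0.37. Scaling the arrays to equal spread ended the calls of Slc16a10 (log2 -0.58) at 1500 mg/kg and 48 h, and Slc38a2 (log2 -0.68) from 24 to 48 h. Fitting only the 3 rats of the group ended those of Slc38a2 at 50 mg/kg and 48 h, and a fit that treats each dose-by-time group as a random block ended those of Slc38a2 from 24 to 48 h. Leaving out 1 rat ended or moved these calls: Slc38a2 at 50 mg/kg and 48 h (log2 -0.73 without rat 3149, log2 -0.54 without rat 3150).

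At 24 h a second set of amino acid carriers stood high, led by Slc7a1, Slc3a2 and Slc7a11. Slc7a1, the cationic amino acid carrier CAT1 for arginine and lysine, had rats at log2 1.96, 2.05 and 2.40 at 1500 mg/kg and 1.72, 3.21 and 2.41 at 2000 mg/kg, all above the 6 rats of the lower doses. Its means were 4.39-fold and 5.45-fold the pool (adjusted p = 7.87e-06 and 5.27e-07). It was still 4.92-fold and 3.4-fold at 48 h, with 1 rat of the 1500 mg/kg group lower than the others (0.94, 3.29 and 2.67) and the 2000 mg/kg rats close together (1.85, 1.80 and 1.65). At 6 h 1 of the 2000 mg/kg rats was high and the others were near the pool (0.18, 2.12 and 0.26, adjusted p = 0.0418). High and low doses differed by log2 2.58 ± 0.32, SE, adjusted p = 4.22e-07 at 24 h and by log2 2.13 ± 0.32, SE, adjusted p = 5.89e-06 at 48 h. Slc3a2 codes for the heavy chain 4F2hc, which carries several Slc7 light chains, among them Slc7a5, Slc7a7, Slc7a8 and Slc7a11, to the cell surface. It stood at 1.57, 1.22 and 1.61 and at 1.53, 1.94 and 1.63 at 24 h, 2.77-fold and 3.25-fold the pool (adjusted p = 8.41e-10 and 3.09e-11), and was called at no other time. The rise from 6 to 24 h (log2 1.19 ± 0.12, SE, adjusted p = 2.66e-08) and the fall from 24 to 48 h (log2 -1.26 ± 0.12, SE, adjusted p = 2.42e-08) both passed. Slc7a11, the light chain of the cystine and glutamate exchanger that supplies cysteine for glutathione, stood at 2.40, 1.15 and 1.36 and 0.64, 2.09 and 2.0 at 24 h. The groups overlap with each other, and 1 rat at 50 mg/kg reached into their range (0.71, -0.01 and 0.09). The means were 3.11-fold and 2.98-fold (adjusted p = 1.59e-06 and 1.44e-06), and at 2000 mg/kg the gene was also called at 6 h (0.99 ± 0.41) and 48 h (0.88 ± 0.34). Slc1a5, the neutral amino acid exchanger ASCT2, was called at 2000 mg/kg and 24 h (0.66, 1.35 and 1.75, adjusted p = 2.57e-07). After the arrays were scaled to equal spread, calls ended for Slc7a1 (log2 0.70) at 2000 mg/kg and 6 h. With the 3 rats of a group fitted alone, calls were lost for Slc7a1 at 2000 mg/kg and 6 h. Calls that ended or moved when 1 rat was left out were Slc7a1 at 2000 mg/kg and 6 h (log2 0.22 without rat 3094).

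**Figure D2:**
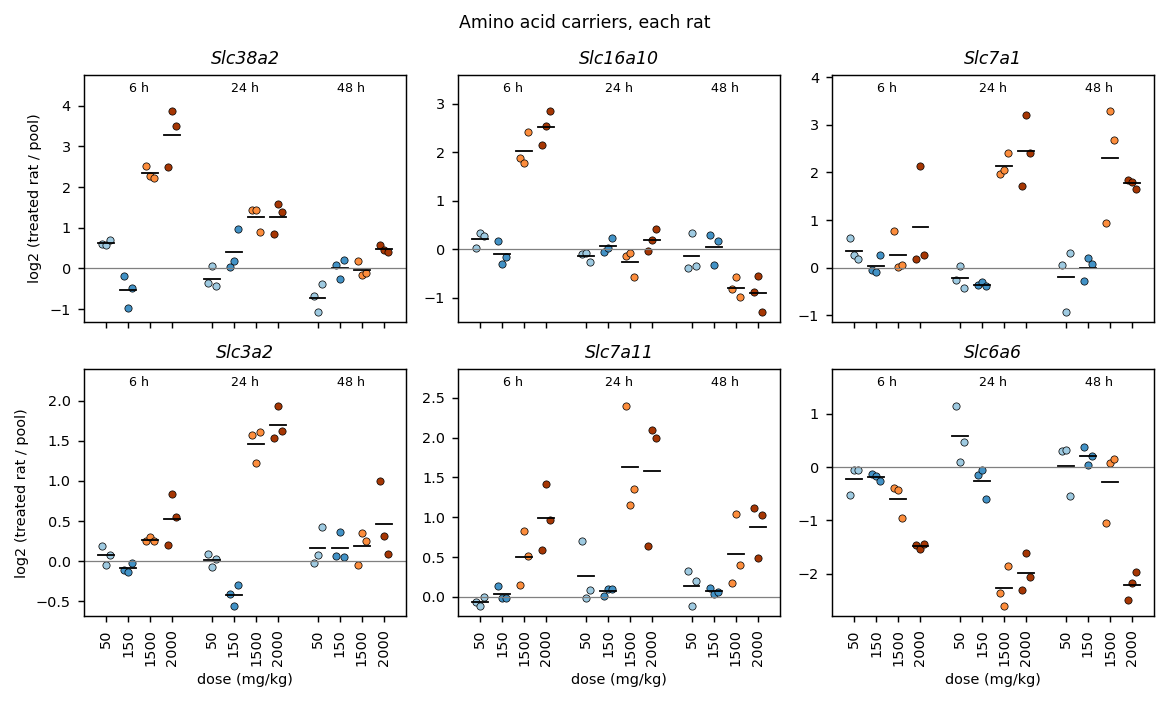
Log2 ratio of treated rat over control pool for 6 amino acid carriers, with 1 point for each rat and a bar for the mean of each group, by dose (colour) and time. Slc38a2 and Slc16a10 are highest at 6 h (means 3.29 and 2.51 at 2000 mg/kg), Slc3a2 at 24 h (1.70), and Slc6a6 at 48 h is low at 2000 mg/kg (-2.21) and near the pool at 1500 mg/kg (-0.27).

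The sequences before 4 of these genes are shown. Slc38a2 was the highest amino acid carrier at 6 h, and Slc7a1, Slc3a2 and Slc7a11 led at 24 h. Slc16a10, also high at 6 h, is not shown. Each run holds the 250 bases before the transcription start, 5′ to 3′ on the gene's strand, from RefSeq on build GRCr8, with motif matches in capitals.
Slc38a2 (chr7:129742620-129742869, minus strand): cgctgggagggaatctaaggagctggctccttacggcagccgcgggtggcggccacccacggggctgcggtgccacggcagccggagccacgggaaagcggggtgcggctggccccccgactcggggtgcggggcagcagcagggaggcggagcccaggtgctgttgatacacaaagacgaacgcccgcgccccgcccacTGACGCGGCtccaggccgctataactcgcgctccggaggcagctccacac
Slc7a1 (chr12:11664238-11664487, plus strand): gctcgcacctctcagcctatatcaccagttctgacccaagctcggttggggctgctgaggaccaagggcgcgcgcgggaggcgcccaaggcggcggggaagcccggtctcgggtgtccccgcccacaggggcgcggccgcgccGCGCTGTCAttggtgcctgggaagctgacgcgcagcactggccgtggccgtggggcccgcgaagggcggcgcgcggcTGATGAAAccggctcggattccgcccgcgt
Slc3a2 (chr1:215048065-215048314, minus strand): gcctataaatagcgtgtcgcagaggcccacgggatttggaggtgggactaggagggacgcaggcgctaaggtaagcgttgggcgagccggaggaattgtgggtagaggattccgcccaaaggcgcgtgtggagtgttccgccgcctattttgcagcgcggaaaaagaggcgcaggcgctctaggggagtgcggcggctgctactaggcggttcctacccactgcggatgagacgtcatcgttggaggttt
Slc7a11 (chr2:136668265-136668514, minus strand): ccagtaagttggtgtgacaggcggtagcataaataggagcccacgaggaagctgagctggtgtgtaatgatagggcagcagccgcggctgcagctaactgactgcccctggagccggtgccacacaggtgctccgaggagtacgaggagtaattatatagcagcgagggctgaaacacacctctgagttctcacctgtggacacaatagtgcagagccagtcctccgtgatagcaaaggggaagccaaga
Capitals mark matches to short cores searched on both strands: TGACNNNGC, a core of the antioxidant response element bound by Nrf2, TGATGNAA, a core of the amino acid response element bound by Atf4, and TGCNCNC, a core of the metal response element. Slc38a2 holds an antioxidant core 50 to 42 bases before the start. Slc7a1 holds that core on the other strand 107 to 99 bases before the start and the amino acid core 30 to 23 bases before it. The windows of Slc3a2 and Slc7a11 hold none of these letters. Promoters were found for 187 of the 218 members. The antioxidant core lay in 19.8% of members' windows and in 10.1% of 33469 rat windows of the same length, the amino acid core in 2.14% and 3.4%, and the metal core in 54.5% and 43.4%. These are counts of letters and say nothing of whether a factor binds there.

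Among amino acid carriers that fell, Slc6a6 moved most. It codes for the sodium-coupled taurine carrier TauT, and taurine is an amino acid that rats join to bile acids. At 24 h its rats stood at log2 -2.35, -2.61 and -1.86 at 1500 mg/kg and -2.30, -1.62 and -2.05 at 2000 mg/kg, below all 6 rats of the lower doses, 4.84-fold and 3.98-fold below the pool (adjusted p = 1.58e-09 and 7.66e-09). High and low doses differed by log2 -2.29 ± 0.20, SE, adjusted p = 1.08e-09. At 48 h the 2000 mg/kg rats were still low (-2.50, -2.17 and -1.97, adjusted p = 1.03e-09), and of the 1500 mg/kg rats 1 was low and the other 2 near the pool (-1.04, 0.07 and 0.14, adjusted p = 0.25). The doses did not overlap at 48 h, and their difference passed (log2 -1.94 ± 0.28, SE, adjusted p = 0.000118). At 6 h the fall was 1.51-fold at 1500 mg/kg and 2.79-fold at 2000 mg/kg. Slc38a4, the neutral amino acid carrier SNAT4 of liver, turned over time at 2000 mg/kg. It stood above the pool at 6 h (1.20, 1.18 and 0.79), below it at 24 h (-0.64, -0.84 and -0.75) and further below at 48 h (-0.75, -1.36 and -1.57). The rats of the 3 times overlap only between 24 and 48 h, and the fall from 6 to 24 h over both high doses passed (log2 -1.32 ± 0.12, SE, adjusted p = 4.11e-09). Under scaling to equal spread the calls were lost for Slc6a6 (log2 -0.50) at 1500 mg/kg and 6 h, and Slc38a4 (log2 -0.49) at 2000 mg/kg and 24 h. In a fit of the group’s 3 rats alone, calls ended for Slc6a6 at 1500 mg/kg and 6 h. With 1 rat left out, calls ended or moved for Slc6a6 at 1500 mg/kg and 6 h (log2 -0.42 without rat 3032).

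The light chains of 4F2hc were unlike one another at 48 h. Slc7a7 and Slc7a8, which code for y+LAT1 and LAT2, were higher than the pool, and Slc7a5, which codes for LAT1, was lower. Slc7a7 stood at log2 1.16, 1.34 and 1.65 at 1500 mg/kg, 2.6-fold the pool (adjusted p = 7.91e-10), and at 0.13, 0.84 and 0.87 at 2000 mg/kg, 1.53-fold (adjusted p = 0.000122). The 1500 mg/kg rats were all above the 2000 mg/kg rats, and that difference passed (log2 -0.77 ± 0.17, SE, adjusted p = 0.00445). Slc7a8 stood at 0.38, 1.65 and 1.49 and at 0.61, 0.58 and 0.62 (adjusted p = 9.93e-08 and 0.000637), and its rise from 24 to 48 h passed (log2 0.95 ± 0.15, SE, adjusted p = 2.44e-05, with 1 rat of the 2000 mg/kg group at 24 h missing). Slc7a6, which codes for y+LAT2, was called at 1500 mg/kg (0.51, 0.67 and 1.61, adjusted p = 0.000482) and was 0.42 at 2000 mg/kg, not called. Its high and low doses differed at 48 h (log2 1.26 ± 0.21, SE, adjusted p = 2.9e-05), where 50 mg/kg rats were lower than the pool (-0.97, -0.87 and -0.99, adjusted p = 0.00307). Marker genes of other cell types also moved at 48 h. Of all features, 13.3% were called higher then at 1500 mg/kg and 12.8% at 2000 mg/kg. Of 12 macrophage and monocyte markers, 5 were called higher at 1500 mg/kg and 4 at 2000 mg/kg, and their mean in a rat lay between log2 0.80 and 1.43 and between 0.68 and 0.83, against -0.24 to 0.12 at 50 and 150 mg/kg. The list's median was log2 -0.02 and 0.12, and the mean drew much on Spp1 (6.33 and 5.22), which cholangiocytes also express. Without Spp1, an alternative added after the values were seen, the rat means were 0.35 to 0.95 and 0.31 to 0.43. The Kupffer cell marker Clec4f was lower at 2000 mg/kg (-0.64, adjusted p = 0.000959) and not called at 1500 mg/kg (-0.36). Of 6 measured stellate cell and fibroblast markers, 4 and 3 were called higher, with rat means of 0.36 to 1.12 and 0.43 to 0.68. Of 11 proliferation genes, 9 and 10 were called higher, with rat means of 1.66 to 2.18 and 1.65 to 2.49. Their part in the 48 h transporter values was not tested. Scaling the arrays to equal spread ended the calls of Slc7a7 (log2 0.49) at 1500 mg/kg and 24 h, Slc7a7 (log2 0.48) at 2000 mg/kg and 24 h, Slc7a7 (log2 0.49) and Slc7a8 (log2 0.49) at 2000 mg/kg and 48 h, and Slc7a7 (log2 -0.49) between 2000 and 1500 mg/kg at 48 h. Fitting only the 3 rats of the group ended those of Slc7a7 at 1500 mg/kg and 24 h, and Slc7a7 at 2000 mg/kg and 48 h. Leaving out 1 rat ended or moved these calls: Slc7a7 at 1500 mg/kg and 24 h (log2 0.49 without rat 3019), Slc7a7 at 2000 mg/kg and 48 h (log2 0.50 without rat 3118, log2 0.49 without rat 3119), Slc7a6 at 1500 mg/kg and 48 h (log2 0.59, still called without rat 3008) and Slc7a7 between 2000 and 1500 mg/kg at 48 h (log2 -0.53 without rat 3117).

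Mitochondrial carriers also split by time. At 6 h Slc25a33 and Slc25a32 were higher and Slc25a30 lower than the pool at both high doses. Slc25a33, a carrier of pyrimidine nucleotides, stood at log2 1.31, 1.55 and 1.55 at 1500 mg/kg and 1.58, 1.57 and 1.90 at 2000 mg/kg, above every rat at 50 and 150 mg/kg. The means were 2.77-fold and 3.22-fold (adjusted p = 1.98e-08 and 8.04e-10). They were 0.74 ± 0.11 and 1.02 ± 0.46 at 24 h. At 48 h the gene stood at -0.06, 0.37 and -0.12 at 1500 mg/kg, near the pool, and at 1.39, 1.06 and 0.87 at 2000 mg/kg, without overlap, and that difference passed (log2 1.04 ± 0.20, SE, adjusted p = 0.0016). Slc25a32, the mitochondrial folate and FAD carrier, stood at 1.79, 1.23 and 0.84 and 1.33, 1.53 and 2.66 at 6 h, 2.44-fold and 3.58-fold the pool (adjusted p = 0.000299 and 1.16e-06), and was called at no other time. Its fall from 6 to 24 h passed (log2 -1.40 ± 0.24, SE, adjusted p = 4.13e-05). Slc25a30, the kidney mitochondrial carrier KMCP1, stood at -1.62, -1.07 and -1.64 and -1.59, -1.72 and -1.33 at 6 h, below every rat of the lower doses (log2 -1.30 ± 0.23, SE, adjusted p = 9.4e-05). It was still low at 1500 mg/kg and 24 h (-0.60, -1.07 and -1.63, adjusted p = 0.000454). At 2000 mg/kg and 24 h it stood at -0.11, -0.34 and -0.10, not called. After the arrays were scaled to equal spread, calls ended for Slc25a33 (log2 0.57) at 1500 mg/kg and 24 h. With the 3 rats of a group fitted alone, calls were lost for Slc25a32 and Slc25a30 at 1500 mg/kg and 6 h.

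At 48 h the ATP and ADP exchangers of the mitochondrial membrane were higher. Of the carriers that exchange ATP-magnesium for phosphate, Slc25a25 was lower at both high doses. Slc25a23 was called lower at 2000 mg/kg and not at 1500 mg/kg (log2 -0.43). Slc25a41, of the same kind, stood near the pool (-0.035 at 1500 mg/kg and -0.016 at 2000 mg/kg). Slc25a4, which codes for the exchanger ANT1, stood at log2 1.66, 2.73 and 2.31 at 1500 mg/kg and 0.82, 1.63 and 2.07 at 2000 mg/kg. That is 4.7-fold and 2.84-fold the pool (adjusted p = 7.18e-10 and 3.43e-07), and all 6 rats were above the low-dose rats (log2 1.66 ± 0.20, SE, adjusted p = 1.53e-07). At 24 h its means were -0.14 and 0.26, and the rise to 48 h passed (log2 1.81 ± 0.20, SE, adjusted p = 1.18e-07). Slc25a5, which codes for ANT2, rose less, to 0.61 ± 0.25 and 0.74 ± 0.32, and was called at 2000 mg/kg and 24 h too. Slc25a3, the phosphate carrier, was called higher at 48 h at both high doses. The proliferation and macrophage markers given above were measured in the same rats, and their part was not tested. Slc25a25 codes for an ATP-magnesium and phosphate carrier that responds to calcium. It stood at -0.85, -1.08 and -1.45 and -1.58, -1.48 and -1.03 at 48 h, 2.18-fold and 2.58-fold below the pool (adjusted p = 4.63e-05 and 3.54e-06). It had also been low at 50 mg/kg and 24 h (-1.27, -1.41 and -1.26, adjusted p = 0.000173), where the rats lay closer together than at the high doses. The related Slc25a23 was lower at 24 h, at -0.78 ± 0.32 and -0.73 ± 0.29, and at 2000 mg/kg and 48 h, at -0.80 ± 0.34. Its probes were unlike each other, from -1.54 to 0.09 at 2000 mg/kg and 24 h. Under scaling to equal spread the calls were lost for Slc25a5 (log2 0.45) and Slc25a23 (log2 -0.49) at 2000 mg/kg and 24 h, Slc25a5 (log2 0.43) at 1500 mg/kg and 48 h, Slc25a5 (log2 0.56) at 2000 mg/kg and 48 h, Slc25a23 (log2 -0.56) at 1500 mg/kg and 24 h, and Slc25a25 (log2 -0.75) from 24 to 48 h. In a fit of the group’s 3 rats alone, calls ended for Slc25a25 at 50 mg/kg and 24 h, and a fit that treats each dose-by-time group as a random block ended those of Slc25a25 from 24 to 48 h. With 1 rat left out, calls ended or moved for Slc25a5 at 1500 mg/kg and 48 h (log2 0.52 without rat 3006, log2 0.55 without rat 3007) and Slc25a5 at 2000 mg/kg and 48 h (log2 0.55 without rat 3119).

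**Figure D3:**
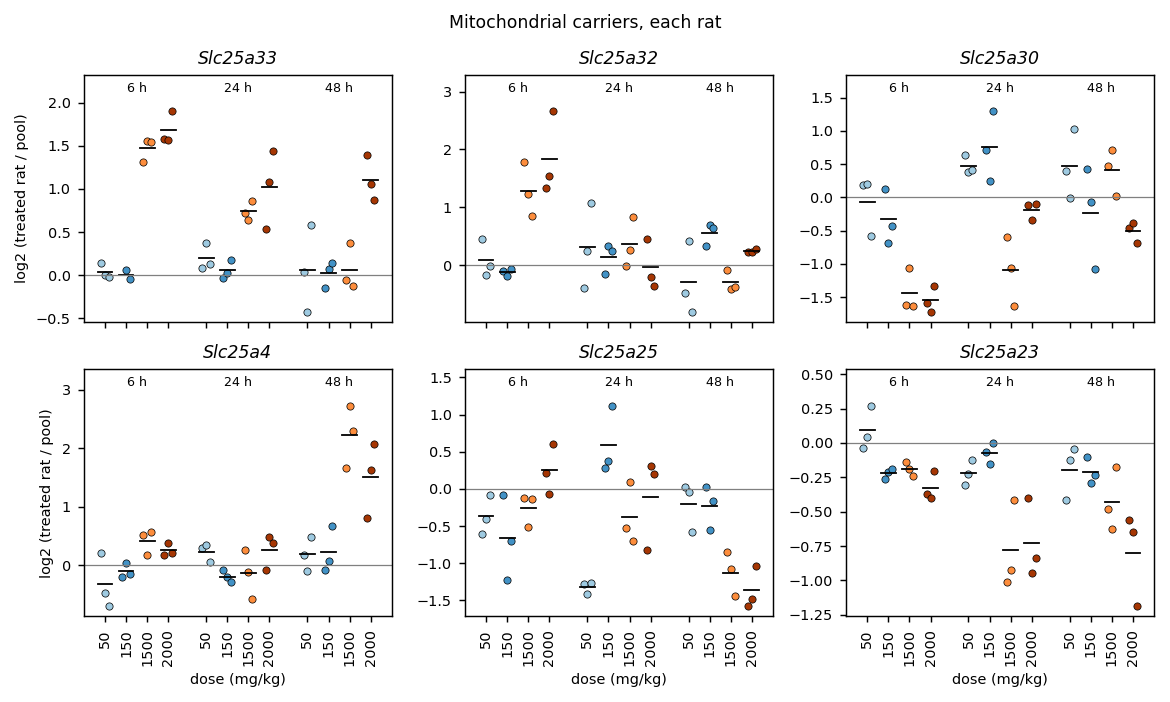
Log2 ratio of treated rat over control pool for 6 mitochondrial Slc25 carriers, with 1 point for each rat and a bar for the group mean, by dose (colour) and time. Slc25a32 and Slc25a33 are high at 6 h (means 1.84 and 1.69 at 2000 mg/kg), Slc25a30 is low there (-1.55), and Slc25a4 is high at 48 h (2.23 at 1500 mg/kg).

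Of 13 sugar carriers, 0 were called higher in any group with limma, and 5 were called lower in at least 1 group (38.5%, near the 39% of all features called in either direction). Slc2a2 codes for GLUT2, the main glucose carrier of the hepatocyte membrane. At 2000 mg/kg it stood at log2 -0.90, -1.12 and -1.41 at 24 h and -1.17, -0.78 and -1.07 at 48 h, 2.21-fold and 2.01-fold below the pool (adjusted p = 1.93e-08 and 9.85e-08). At 1500 mg/kg the values were -0.46, -0.87 and 0.05 and -0.05, -0.20 and -0.19, neither mean called. The doses did not overlap at either time, and both differences passed (log2 -0.72 ± 0.17, SE, adjusted p = 0.00757 at 24 h and log2 -0.86 ± 0.17, SE, adjusted p = 0.00208 at 48 h). Slc37a4, the glucose 6-phosphate carrier of the endoplasmic reticulum that feeds glucose release, stood at -0.54, -1.27 and -1.41 at 24 h and -0.70, -1.11 and -1.52 at 48 h at 2000 mg/kg, 2.1-fold and 2.16-fold below the pool (adjusted p = 1.57e-07 and 6.04e-08). Its means at 1500 mg/kg were -0.24 ± 0.44 and -0.56 ± 0.08, neither called, and the doses differed at 24 h (log2 -0.83 ± 0.18, SE, adjusted p = 0.00446). At 6 h it had stood at 0.33 ± 0.12 and 0.56 ± 0.05, above 0 but not called, and the fall to 24 h passed (log2 -1.10 ± 0.13, SE, adjusted p = 1.87e-07). Slc2a5, the fructose carrier GLUT5, showed the largest fall of any member. Its 2000 mg/kg rats stood at -2.43, -2.64 and -2.36 at 24 h, 5.57-fold below the pool (adjusted p = 1.77e-10), against -0.51, -0.53 and -0.19 at 1500 mg/kg (log2 -2.07 ± 0.28, SE, adjusted p = 0.000116). At 6 h both doses were lower (-1.78, -0.54 and -0.62 and -1.40, -0.56 and -0.79). At 48 h the 1500 mg/kg rats lay above the pool (0.51, 0.21 and 0.40, not called) and the 2000 mg/kg rats below it (-0.85, -0.28 and -1.04, adjusted p = 0.00331), a difference of log2 -1.10 ± 0.28, SE, adjusted p = 0.0105. GLUT1 and GLUT3, coded by Slc2a1 and Slc2a3, were called in no group, with group means between -0.21 and 0.53 and between -0.26 and 0.28. The probes of Slc2a1 were unlike each other at 1500 mg/kg and 48 h (-0.19 and 1.25). Slc37a1 was called lower at 48 h at both high doses (-0.67 at 1500 mg/kg and -0.91 at 2000 mg/kg). Slc2a4 had means of -0.57 and -1.23 there. Both belong to the members that varied alike from rat to rat, described below, and the alternatives given next leave them out. Scaling the arrays to equal spread ended the calls of Slc2a5 (log2 -0.54) at 2000 mg/kg and 48 h, Slc2a2 (log2 -0.47), Slc37a4 (log2 -0.56) and Slc2a5 (log2 -1.39) between 2000 and 1500 mg/kg at 24 h, and Slc2a5 (log2 -0.81) between 2000 and 1500 mg/kg at 48 h. Fitting only the 3 rats of the group ended those of Slc2a5 at 1500 mg/kg and 6 h. Leaving out 1 rat ended or moved these calls: Slc2a5 at 1500 mg/kg and 6 h (log2 -0.58 without rat 3030), Slc2a5 at 2000 mg/kg and 48 h (log2 -0.56 without rat 3119), Slc2a2 between 2000 and 1500 mg/kg at 24 h (log2 -0.48 without rat 3020, log2 -0.58 without rat 3107) and Slc2a5 between 2000 and 1500 mg/kg at 48 h (log2 -0.94 without rat 3119).

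Organic ion carriers moved in both directions. The rises were in the phosphate carrier family Slc17, whose liver members move urate and other organic anions, and in the carnitine carrier. Slc17a3, which codes for NPT4, stood at log2 1.63, 1.41 and 1.95 at 1500 mg/kg and 1.98, 1.60 and 1.65 at 2000 mg/kg at 24 h, 3.17-fold and 3.35-fold the pool (adjusted p = 2.05e-09 and 4.44e-10). All 6 rats were above those at 6 h (log2 1.77 ± 0.15, SE, adjusted p = 5.5e-10). At 48 h the 2000 mg/kg rats stayed high (1.88, 1.36 and 1.65), and at 1500 mg/kg 1 rat was high and the others lower (1.39, 0.27 and 0.44). The dose difference at 48 h passed (log2 0.93 ± 0.21, SE, adjusted p = 0.00441), though 1 rat at 1500 mg/kg lay within the 2000 mg/kg range. Slc17a1, which codes for NPT1, was called at 2000 mg/kg at 24 h (0.59 ± 0.07) and 48 h (0.93 ± 0.22). Slc22a5, the carnitine carrier OCTN2, was higher at 6 h (0.86, 1.03 and 1.42 and 1.64, 1.13 and 1.47), 2.15-fold and 2.66-fold the pool (adjusted p = 4.42e-08 and 2.94e-10), and was called at no later time. Its fall from 6 to 24 h passed without overlap of the rats (log2 -0.85 ± 0.11, SE, adjusted p = 1.13e-06). The falls were in 4 members of the Slc22 family. Slc22a7, which codes for OAT2, stood at -0.79, -0.72 and -0.65 and -0.66, -0.85 and -0.84 at 24 h, below all low-dose rats (log2 -0.76 ± 0.07, SE, adjusted p = 8.61e-10). Slc22a8, which codes for OAT3, fell to -0.60 ± 0.25 and -0.65 ± 0.28 at 24 h and stood at -1.20, -1.16 and -0.93 and -0.84, -1.31 and -1.64 at 48 h. The 48 h values are 2.13-fold and 2.4-fold below the pool and below every low-dose rat (log2 -1.21 ± 0.12, SE, adjusted p = 6.42e-09). Slc22a15 and Slc22a6, the organic anion carrier OAT1, were also called lower and were added here after their values were seen. Slc22a15 stood at -0.63, -0.89 and -0.44 at 2000 mg/kg and 24 h (adjusted p = 1.05e-05) and -0.90, -0.93 and -1.32 at 48 h, 2.07-fold below the pool (adjusted p = 5.36e-09), and at 1500 mg/kg its means were -0.46 and -0.29, not called. Its dose difference at 48 h passed (log2 -0.76 ± 0.15, SE, adjusted p = 0.00186). Slc22a6 was called at 1500 mg/kg and 48 h alone (-0.61, -0.55 and -0.62, adjusted p = 4.16e-07), just past the 1.5-fold minimum. The Slco carriers take up bile acids and drugs and were not counted among the members. Of 8 measured, Slco1a1, Slco1a4 and Slco1b2 were called lower at 24 and 48 h at both high doses. At 48 h 4 were called lower at each high dose, and Slco3a1 was called higher at 1500 mg/kg. Of all features, 2.75% and 4.43% were called lower at 24 h and 5.42% and 9.17% at 48 h. After the arrays were scaled to equal spread, calls ended for Slc17a3 (log2 0.51) and Slc22a6 (log2 -0.42) at 1500 mg/kg and 48 h, Slc22a7 (log2 -0.54) and Slc22a8 (log2 -0.43) at 1500 mg/kg and 24 h, Slc22a7 (log2 -0.51), Slc22a8 (log2 -0.42), Slc17a1 (log2 0.37) and Slc22a15 (log2 -0.43) at 2000 mg/kg and 24 h, and Slc22a15 (log2 -0.52) between 2000 and 1500 mg/kg at 48 h. With the 3 rats of a group fitted alone, calls were lost for Slc17a3 at 1500 mg/kg and 48 h, and Slc22a5 at 1500 mg/kg and 6 h. Calls that ended or moved when 1 rat was left out were Slc17a3 at 1500 mg/kg and 48 h (log2 0.35 without rat 3006), Slc22a8 at 1500 mg/kg and 24 h (log2 -0.55 without rat 3018, log2 -0.51 without rat 3019), Slc22a8 at 2000 mg/kg and 24 h (log2 -0.55 without rat 3107), Slc17a1 at 2000 mg/kg and 24 h (log2 0.55 without rat 3106), Slc22a15 at 2000 mg/kg and 24 h (log2 -0.54 without rat 3106) and Slc22a6 at 1500 mg/kg and 48 h (log2 -0.58 without rat 3008).

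**Figure D4:**
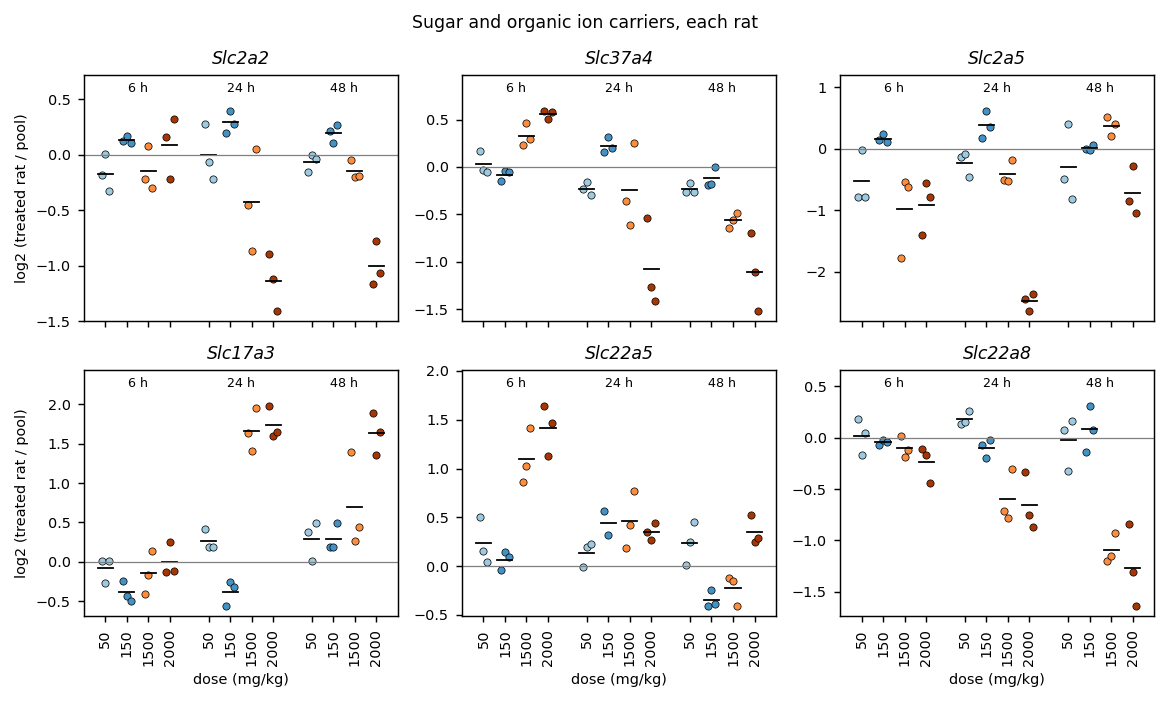
Log2 ratio of treated rat over control pool for 3 sugar carriers (top row) and 3 organic ion carriers (bottom row), with 1 point for each rat and a bar for the group mean, by dose (colour) and time. Slc2a2, Slc37a4 and Slc2a5 are lower at 2000 than at 1500 mg/kg at 24 h (Slc2a5 at -2.48 against -0.41), Slc22a5 is high at 6 h only (1.41 at 2000 mg/kg), and Slc17a3 is high from 24 h (1.74).

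Among carboxylate carriers Slc13a5 and Slc13a3 moved in opposite directions. Slc13a5, the sodium-coupled citrate carrier of liver, stood at log2 1.39, 1.42 and 2.0 at 1500 mg/kg and 2.28, 2.05 and 2.15 at 2000 mg/kg at 6 h, 3.04-fold and 4.46-fold the pool (adjusted p = 0.00051 and 6.03e-06). These rats did not overlap with the low-dose rats (log2 1.78 ± 0.31, SE, adjusted p = 0.000101). At 24 h the rats were far apart, 1.16, 3.07 and 0.04 and 0.16, 1.5 and 2.12, with 1 rat of each dose near the pool (adjusted p = 0.000846 and 0.00168). Slc13a3, a sodium-coupled carrier of dicarboxylates such as succinate, was lower at 1500 mg/kg at 24 h (-1.68, -1.29 and -0.90, adjusted p = 0.000165) and 48 h (-0.67, -2.99 and -1.54, adjusted p = 1.18e-06). At 2000 mg/kg it stood at -0.45 ± 0.51 and -0.51 ± 0.35, not called. Slc16a3, the lactate exporter MCT4, was called at 1500 mg/kg and 48 h, where its rats ranged from the pool level to well above it (0.01, 1.70 and 2.45, adjusted p = 4.69e-05). Slc16a1, the lactate carrier MCT1, was called in no group, with means between -0.13 and 0.20. In a fit of the group’s 3 rats alone, calls ended for Slc13a5 at 1500 mg/kg and 6 h, Slc13a5 at 1500 mg/kg and 24 h, Slc13a5 at 2000 mg/kg and 24 h, and Slc13a3 and Slc16a3 at 1500 mg/kg and 48 h. With 1 rat left out, calls ended or moved for Slc13a5 at 1500 mg/kg and 24 h (log2 0.60 without rat 3019), Slc13a5 at 2000 mg/kg and 24 h (log2 0.83 without rat 3107), Slc13a3 at 1500 mg/kg and 48 h (log2 -1.11, still called without rat 3007) and Slc16a3 at 1500 mg/kg and 48 h (log2 0.86, still called without rat 3008).

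Slc28a2 and Slc29a1, nucleoside carriers of the plasma membrane, were lower at high doses. Slc28a2, the sodium-coupled purine nucleoside carrier CNT2, stood at log2 -1.39, -1.88 and -1.10 at 1500 mg/kg and -1.05, -1.51 and -1.23 at 2000 mg/kg at 24 h, 2.74-fold and 2.4-fold below the pool (adjusted p = 1.44e-09 and 7.97e-09). All 6 were below the low-dose rats (log2 -1.65 ± 0.13, SE, adjusted p = 1.24e-10). The high-dose means at 48 h were 0.03 and -0.23, not called, a rise from 24 h that passed (log2 1.26 ± 0.13, SE, adjusted p = 3.3e-08), and the 50 and 150 mg/kg rats were called higher (0.74, 0.86 and 0.37 and 0.76, 0.54 and 0.47). Slc29a1, the equilibrative carrier ENT1, was lower at 6 h (-0.58, -0.89 and -1.30 and -1.01, -1.10 and -1.36), with high and low doses apart (log2 -1.02 ± 0.11, SE, adjusted p = 1.54e-07). It was also called lower at 50 and 1500 mg/kg at 24 h and at both high doses at 48 h (-0.80 ± 0.16 and -0.62 ± 0.09). The Slc35 family had calls in the higher direction at 48 h. Several of its members, but not all, are known to move nucleotide sugars into the Golgi and endoplasmic reticulum for glycosylation. It is part of the 20 nucleoside and nucleotide sugar carriers, was not set as a class of its own, and its shares were not tested. Of the 13 Slc35 members 7 were called higher at 1500 mg/kg (53.8%, background 13.3%) and 5 at 2000 mg/kg (38.5%, background 12.8%), with medians over the 13 of log2 0.59 and 0.47. Slc35a3 counted among the 7, though its probes stood at 0.04 and 1.15. Slc35e3 stood at 1.06, 1.15 and 1.00 and 0.98, 0.94 and 1.30 (adjusted p = 5.47e-08 and 4.36e-08), with rats close together. Slc35d2 stood at 1.11, 0.75 and 1.30 and 1.00, 0.53 and 1.08 after -0.74 ± 0.27 at 2000 mg/kg and 6 h, and its rise from 24 to 48 h passed (log2 1.01 ± 0.15, SE, adjusted p = 9.13e-06). It was also 1 of the 2 members called at 150 mg/kg and 48 h (0.49, 0.75 and 0.73, adjusted p = 0.00593). Slc35b4 had means of 1.02 ± 0.16 and 0.79 ± 0.53 at 48 h, and Slc35f6 0.81 ± 0.09 and 1.33 ± 0.42. Scaling the arrays to equal spread ended the calls of Slc29a1 (log2 -0.45) at 1500 mg/kg and 24 h, Slc29a1 (log2 -0.56) at 1500 mg/kg and 48 h, and Slc29a1 (log2 -0.48) at 2000 mg/kg and 48 h. Fitting only the 3 rats of the group ended those of Slc28a2 at 50 mg/kg and 48 h, Slc28a2 and Slc35d2 at 150 mg/kg and 48 h, Slc29a1 at 1500 mg/kg and 6 h, Slc29a1 at 50 mg/kg and 24 h, and Slc35b4 at 2000 mg/kg and 48 h. Leaving out 1 rat ended or moved these calls: Slc28a2 at 50 mg/kg and 48 h (log2 0.56 without rat 3150), Slc28a2 at 150 mg/kg and 48 h (log2 0.50 without rat 3057), Slc29a1 at 50 mg/kg and 24 h (log2 -0.55 without rat 3137), Slc29a1 at 1500 mg/kg and 24 h (log2 -0.51 without rat 3019), Slc29a1 at 2000 mg/kg and 48 h (log2 -0.57 without rat 3119), Slc35d2 at 150 mg/kg and 48 h (log2 0.61 without rat 3058, log2 0.62 without rat 3059) and Slc35b4 at 2000 mg/kg and 48 h (log2 0.50 without rat 3119).

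Of 32 inorganic ion carriers 6 were called in at least 1 group (18.8%, against 39% of all features), and Slc12a2 was called higher in more groups than any other member. It codes for NKCC1, which brings sodium, potassium and chloride into the cell together. At 24 h it stood at log2 1.44, 1.03 and 0.56 at 1500 mg/kg and 1.70, 2.54 and 2.51 at 2000 mg/kg, 2.01-fold and 4.75-fold the pool (adjusted p = 2.63e-06 and 2.02e-12). The doses did not overlap, and their difference passed (log2 1.24 ± 0.20, SE, adjusted p = 0.00032), as did that between high and low doses (log2 1.41 ± 0.14, SE, adjusted p = 1.06e-08). Its 6 h rats stood at 0.61, 0.75 and 0.67 at 1500 mg/kg and at 0.95, 1.28 and 1.18 at 2000 mg/kg. Its other calls were 0.67 ± 0.16 and 0.93 ± 0.12 at 48 h, and 0.77, 0.48 and 0.70 at 50 mg/kg and 6 h, the single member called there (adjusted p = 0.00423). Slc4a4, the sodium bicarbonate carrier NBCe1, was higher at 2000 mg/kg and 24 h (0.93, 1.40 and 1.68, adjusted p = 1.78e-07) and at both high doses at 48 h (0.81 ± 0.27 and 1.12 ± 0.41). Slc4a2, the chloride and bicarbonate exchanger AE2 known for bile bicarbonate secretion, was lower at 2000 mg/kg and 6 h (-1.16, -1.19 and -1.49, adjusted p = 6.91e-06), and high and low doses differed (log2 -1.29 ± 0.19, SE, adjusted p = 9.06e-06) although 1 rat at 1500 mg/kg stood above the pool (0.29, -0.92 and -1.52). Slc26a1, a sulfate carrier, was lower at 2000 mg/kg and 48 h (-0.76, -0.95 and -1.40, adjusted p = 1.43e-07), and so was Slc4a5, a sodium bicarbonate carrier (-2.15, -0.52 and -1.18, adjusted p = 5.38e-07). After the arrays were scaled to equal spread, calls ended for Slc12a2 (log2 0.47) and Slc4a4 (log2 0.58) at 1500 mg/kg and 48 h. With the 3 rats of a group fitted alone, calls were lost for Slc12a2 at 1500 mg/kg and 6 h. Calls that ended or moved when 1 rat was left out were Slc12a2 at 50 mg/kg and 6 h (log2 0.59 without rat 3125, log2 0.62 without rat 3127) and Slc4a5 at 2000 mg/kg and 48 h (log2 -0.85, still called without rat 3117).

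Among metal and heme carriers, Slc40a1, the iron exporter ferroportin, rose late. It stood at log2 0.88, 1.10 and 0.89 at 1500 mg/kg and 1.33, 1.09 and 1.43 at 2000 mg/kg at 48 h, 1.94-fold and 2.44-fold the pool (adjusted p = 0.000532 and 1.67e-05), above all low-dose rats (log2 0.89 ± 0.22, SE, adjusted p = 0.0018) and above the high-dose rats at 24 h (log2 1.32 ± 0.22, SE, adjusted p = 4.68e-05). The gene is also known from macrophages, and the values of their markers at that time are given above. Slc48a1, the heme carrier HRG1, stood at 0.99, 0.98 and 0.55 and 0.78, 1.45 and 0.92 at 24 h, up from 6 h (log2 1.02 ± 0.10, SE, adjusted p = 5.24e-09). Slc39a10, a zinc importer, was higher at 24 h and at 1500 mg/kg and 48 h (1.05, 1.24 and 1.55, adjusted p = 5.47e-06), and Slc31a2, of the copper carrier family, was called at 1500 mg/kg at 6 and 48 h. The zinc exporter Slc30a1 and the iron importer Slc11a2 were called in no group, with means between -0.19 and 0.42 and between -0.30 and 0.02. The vitamin carriers that were called all fell. Slc19a2, the thiamine carrier, had means of -0.71 ± 0.15 and -0.65 ± 0.18 at 24 h and -0.81 ± 0.15 and -0.82 ± 0.27 at 48 h, and high and low doses differed by log2 -0.91 ± 0.08, SE, adjusted p = 4.52e-10 at 48 h. Its probes differed in size, from -1.34 to -0.11 at 2000 mg/kg and 48 h. Slc23a1, the vitamin C carrier SVCT1, stood at -0.62, -1.46 and -1.02 at 2000 mg/kg and 24 h (adjusted p = 9.23e-06) and was lower than in low-dose rats at 48 h (log2 -1.09 ± 0.16, SE, adjusted p = 5.76e-06). Slc15a1, the peptide carrier PEPT1, was higher at 24 h at both high doses (1.20, 0.98 and 0.26 and 0.77, 1.54 and 1.43, high minus low log2 1.29 ± 0.18, SE, adjusted p = 4.05e-06) and lower at 2000 mg/kg and 48 h (-0.51, -0.96 and -0.48). Under scaling to equal spread the calls were lost for Slc39a10 (log2 0.54), Slc19a2 (log2 -0.52) and Slc15a1 (log2 0.56) at 1500 mg/kg and 24 h, Slc39a10 (log2 0.56) and Slc19a2 (log2 -0.46) at 2000 mg/kg and 24 h, Slc48a1 (log2 0.55) and Slc15a1 (log2 -0.41) at 2000 mg/kg and 48 h, Slc31a2 (log2 0.56) at 1500 mg/kg and 6 h, Slc31a2 (log2 0.50), Slc19a2 (log2 -0.57) and Slc23a1 (log2 -0.52) at 1500 mg/kg and 48 h, and Slc40a1 (log2 0.54) between high and low doses at 48 h. In a fit of the group’s 3 rats alone, calls ended for Slc39a10 and Slc15a1 at 1500 mg/kg and 24 h, and Slc31a2 at 1500 mg/kg and 6 h. The call of Slc48a1 at 2000 mg/kg and 48 h was lost when the probe with the largest variance was used (log2 0.58). With 1 rat left out, calls ended or moved for Slc39a10 at 1500 mg/kg and 24 h (log2 0.59 without rat 3018), Slc39a10 at 2000 mg/kg and 24 h (log2 0.59 without rat 3106), Slc48a1 at 2000 mg/kg and 48 h (log2 0.57 without rat 3117), Slc31a2 at 1500 mg/kg and 6 h (log2 0.51 without rat 3032), Slc31a2 at 1500 mg/kg and 48 h (log2 0.58 without rat 3007), Slc19a2 at 2000 mg/kg and 24 h (log2 -0.54 without rat 3106), Slc23a1 at 1500 mg/kg and 48 h (log2 -0.57 without rat 3008) and Slc15a1 at 2000 mg/kg and 48 h (log2 -0.49 without rat 3118).

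Counted over all members, the tests between groups gave these numbers. High against low doses at 6 h gave 23 members (10.6%, background 8.13%), 14 higher (6.42%, background 4.67%) and 9 lower (4.13%, background 3.46%). At 24 h it called 34 members (15.6%, background 9.93%), 19 higher (8.72%, background 6.56%) and 15 lower (6.88%, background 3.37%). At 48 h it called 30 members (13.8%, background 12.4%), 14 higher (6.42%, background 8.26%) and 16 lower (7.34%, background 4.09%). Over the high doses, the step from 6 to 24 h gave 36 members (16.5%, background 10.1%), 19 higher (8.72%, background 5.76%) and 17 lower (7.8%, background 4.37%). The step from 24 to 48 h gave 24 members (11%, background 9.08%), 10 higher (4.59%, background 5.72%) and 14 lower (6.42%, background 3.36%). Between 2000 and 1500 mg/kg limma called 0 members at 6 h (background 0.613%, 0.376% higher and 0.237% lower), with 29 at an unadjusted p below 0.05. At 24 h this difference was called in 11 members (5.05%, background 5.17%), 3 higher (1.38%, background 2.5%) and 8 lower (3.67%, background 2.67%). At 48 h it was called in 19 members (8.72%, background 5.4%), 5 higher (2.29%, background 2.08%) and 14 lower (6.42%, background 3.32%). The count between these doses at 24 h fell to 6 without rat 3020 and to 4 without rat 3107, and that at 48 h fell to 11 without rat 3008 or rat 3119. The dose differences at 48 h were mostly lower values at 2000 mg/kg, with Slc6a6, Slc2a5 and Slc2a2 described above. Under equal-spread scaling the numbers higher and lower were 12 and 6 between high and low doses at 24 h, 6 and 3 between 48 and 24 h, and 2 and 0 and 2 and 3 between the high doses at 24 and 48 h. Members called at 1500 mg/kg were also called in the same direction at 2000 mg/kg in these shares, set beside the share over all features. They were 77.8% of the higher (61.5%) and 50% of the lower (40.7%) at 6 h. The 24 h shares were 80% (69%) and 58.3% (61.7%), and the 48 h shares 66.7% (69.9%) and 68.8% (65.1%). Taken from the 2000 mg/kg side, they were 43.8% (50.7%) and 83.3% (40.2%), 61.5% (47.7%) and 43.8% (38.2%), and 78.3% (72.6%) and 40.7% (38.5%). The 83.3% stands for 5 of 6 members, and no share was tested against that of all features.

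A group of 7 members varied alike from rat to rat, and it was picked after its values were seen. Slc39a2, a zinc importer of the ZIP family, had a Pearson r of at least 0.85 over the 36 rats with 6 others. These were Slc2a4 (the insulin-regulated glucose carrier GLUT4), Slc32a1 (the vesicular carrier of GABA and glycine), Slc37a1, Slc46a1 (the proton-coupled folate carrier), Slc6a2 (the noradrenaline carrier) and Slc7a5. Pairs among the 7 correlated at r = 0.70 to 0.97 over all rats and at 0.71 to 0.94 after the group means were removed, so rats of a single group differed together. All share the same arrays and pools. The mean of the 7 was lowest in rat 3119 (2000 mg/kg, 48 h, -1.48) and rat 3032 (1500 mg/kg, 6 h, -1.05). The other rats of those groups stood at -0.89 and -0.83, and at -0.09 and -0.41. Rats 3119 and 3032 also had the widest spread of ratios over all features (SD log2 0.738 and 0.623). The other rats of their groups had spreads of 0.502 and 0.504, and of 0.298 and 0.358. The part of this array-wide spread in the values of the 7 was not tested. At 50 mg/kg the mean of the 7 was -0.61, -0.41 and -0.45 at 24 h and -0.72, -0.39 and -0.34 at 48 h, against 0.08, 0.33 and 0.23 at 6 h. Of the 7, Slc39a2, Slc7a5 and Slc32a1 were also called at low doses. Slc39a2 stood at log2 -0.88, -0.75 and -0.75 at 50 mg/kg and 24 h (adjusted p = 0.00119) and at -1.24, -1.27 and -2.06 at 2000 mg/kg and 48 h (adjusted p = 7.27e-09). Slc7a5 stood at -0.17, -0.65 and -1.69 at 1500 mg/kg and 6 h, where a single rat set the mean (adjusted p = 0.00132), and at -0.96, -0.81 and -1.70 at 2000 mg/kg and 48 h (adjusted p = 4.69e-06). Scaling the arrays to equal spread ended the calls of Slc39a2 (log2 -0.50) at 1500 mg/kg and 6 h, and Slc7a5 (log2 -0.51) at 1500 mg/kg and 48 h. Fitting only the 3 rats of the group ended those of Slc39a2 and Slc7a5 at 1500 mg/kg and 6 h, Slc39a2 and Slc7a5 at 50 mg/kg and 24 h, and Slc39a2 and Slc7a5 at 50 mg/kg and 48 h. Leaving out 1 rat ended or moved these calls: Slc39a2 at 1500 mg/kg and 6 h (log2 -0.37 without rat 3032), Slc7a5 at 1500 mg/kg and 6 h (log2 -0.41 without rat 3032), Slc7a5 at 50 mg/kg and 24 h (log2 -0.68 without rat 3137), Slc7a5 at 50 mg/kg and 48 h (log2 -0.53 without rat 3149) and Slc7a5 at 1500 mg/kg and 48 h (log2 -0.58 without rat 3006).

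**Figure D5:**
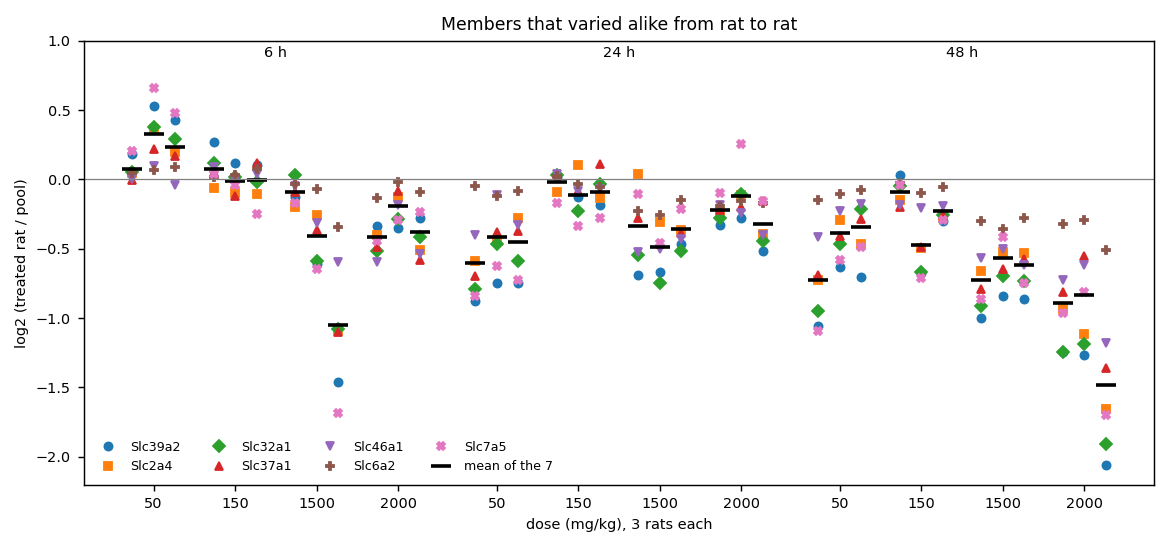
Log2 ratio of treated rat over control pool for Slc39a2 and the 6 members that followed it (markers) and their mean (black bars), with the 36 rats set side by side by time and dose. The 7 members move together within groups, and rats 3032 and 3119 stand lowest (-1.05 and -1.48). These rats also had the widest spread of ratios over all features.

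Several carriers known from liver were called in no group. They include Slc38a3, the glutamine carrier SNAT3 (means -0.29 to 0.20), Slc43a1, the carrier LAT3 for branched-chain amino acids (-0.16 to 0.12), Slc25a1, the mitochondrial citrate carrier (-0.33 to 0.49), Slc27a2, a fatty acid carrier and acyl-CoA synthetase (-0.18 to 0.21), Slc19a1, the reduced folate carrier (-0.54 to 0.15), and Slc47a1, the cation and proton exchanger MATE1 (-0.43 to 0.02). A value that misses the threshold does not show that the RNA stayed at the pool level. The ATP-binding cassette transporters are a separate class that pumps substrates with ATP. At 2000 mg/kg and 24 h they gave 7 higher and 5 lower of 31 measured (background 10.3% and 4.43%). Abcc3 and Abcc4 were among the higher and the bile salt pump Abcb11 among the lower. At 1500 mg/kg and 24 h they gave 6 and 2 (background 7.14% and 2.75%). At 48 h they gave 7 and 4 (13.3% and 5.42%) and 5 and 4 (12.8% and 9.17%). The 6 h numbers were 1 and 2 (4.2% and 2.81%) and 3 and 1 (5.1% and 2.85%).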

How the data were processed

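Liver RNA of 36 rats was measured on 72 dye-swapped arrays. The deposited values are log10 ratios, 1 column an array, which per the labels come from a G2565AA scanner and the Feature Extraction program G2566AA of Agilent. The scale was read from the cap at 2, where 0 member values stood, and from that software, and red over green is likely by its convention. Column medians lay between -0.0191 and 0.019, which shows centring, by a method not stated. Raw correlation between the arrays of a rat was -0.718 to -0.482 at the high doses at 48 h. It was below 0, as a treatment effect turned by the swap would give, in only 21 of the 36 rats. At 6 h it stood at -0.252, 0.31 and -0.299 at 1500 mg/kg and at 0.148, 0.068 and -0.156 at 2000 mg/kg. Over members, after turning, the arrays of some rats still disagreed, as in rat 3057 (150 mg/kg, 48 h, r = -0.465). The dye effect had an SD of log2 0.238, against 0.16 to 0.738 for single rats. Ratios have no read depth, and probe brightness was not used here.

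Ratios were turned to treated over pool, expressed as log2 and averaged, first over probes with the same symbol on each array, then over both arrays of each rat. Of 20500 probes 12750 had 1 symbol, 5 several and 7745 none, and 12720 Entrez identifiers matched the GRCr8 gene table with 0 symbols changed. The 12 groups were fitted together in limma 3.58.1 (R 4.3.3, 24 residual degrees of freedom), tested on simulated data first. Members, lists and the naming rule were chosen with earlier results of these data known. The rule names 49 measured members of a list of 57, up to 6 called members each way with the largest change in a comparison, and members called in 5 or more groups. Slc22a6, Slc22a15 and Slc25a41 were added after their values were seen. Alternatives left out the fold minimum, scaled the arrays, used another probe, array, spread or block choice, or left out a rat. Probes of a member differed by over log2 1 for Slc25a23, Slc35a3, Slc41a3, Slc2a1, Slc41a2, Slc2a6, Slc30a5, Slc39a4, Slc44a2, Slc19a2 and Slc22a23.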

Additional observations from a re-analysis of the deposited data

Results flagged for a closer look

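In 6 cases all rats of one group or time lay above the pool and all rats of the other below it, and the tested difference passed. Slc15a1, the peptide carrier PEPT1, was below the pool at 6 h and above it at 24 h at the high doses, a change of log2 1.27 ± 0.19 (SE, limma adjusted p = 1.07e-05, from a mean of -0.25 to 1.03, with 1 rat at 1500 mg/kg and 6 h missing). It was below the pool again at 48 h, a change of -1.51 ± 0.18 (adjusted p = 8.02e-07, to a mean of -0.48). Slc35b4, of the nucleotide sugar carriers, moved from -0.35 to 0.71 between 6 and 24 h (1.06 ± 0.15, adjusted p = 3.25e-06). Slc38a4, the neutral amino acid carrier SNAT4, moved the other way, from 0.80 to -0.51 (-1.32 ± 0.12, adjusted p = 4.11e-09). At 48 h Slc2a5, the fructose carrier GLUT5, stood above the pool at 1500 mg/kg and below it at 2000 mg/kg (0.37 against -0.72, a difference of -1.10 ± 0.28, adjusted p = 0.0105), and the call ended without rat 3119 (-0.94). Slc4a2, the exchanger AE2, stood below the pool at 1500 mg/kg and above it at 2000 mg/kg (-0.64 against 0.37, a difference of 1.00 ± 0.27, adjusted p = 0.0124), and the call ended without rat 3006 (0.86) or rat 3008 (0.93). After scaling to equal spread the last pair was no longer called (-0.81 and 0.76). Each group was set against its own pool, so a difference between pools cannot be told apart from a difference between groups of rats.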

How the results depend on the processing

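Counts of members called are given in the order 50, 150, 1500 and 2000 mg/kg. Without the fold minimum they were 5, 0, 72 and 78 for 6 h, 37, 1, 91 and 108 for 24 h and 41, 10, 129 and 119 for 48 h, then 73, 69 and 94 between high and low doses at 6, 24 and 48 h, 77 and 78 over time and 1, 27 and 41 between 2000 and 1500 mg/kg, since smaller changes then count. Scaling of all arrays to the same spread gave 4, 5, 12 and 17 for 6 h, 7, 12, 14 and 18 for 24 h and 8, 3, 17 and 36 for 48 h, with 18, 18 and 13 for dose level, 19 and 9 over time and 0, 2 and 5 between the high doses. The cause was not tested. With 72 arrays, a dye term and the rat as a random block, counts moved by over 1.5 times only at 50 mg/kg and 6 h, 150 mg/kg at 6 and 24 h and between the high doses at 6 h, to 2 in each. The probe of largest variance changed the count by over 1.5 times only at 50 mg/kg and 48 h, to 13, cause not tested. Fits of 3 rats alone, which have fewer samples for the spread, gave 2, 0, 3 and 21 for 6 h, 0, 0, 24 and 40 for 24 h and 0, 0, 40 and 48 for 48 h. Treating dose-by-time groups as random blocks gave 14, 31, 23, 26 and 11 for dose level and time, and for 2000 against 1500 mg/kg it was not run because each dose is 1 group. Requiring both arrays in all 36 rats kept each count within 1.5 times.

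Leaving out 1 rat gave 0 to 1, 0 to 0, 14 to 32 and 23 to 29 members at 6 h, 4 to 12, 0 to 0, 22 to 43 and 36 to 44 at 24 h and 9 to 11, 1 to 1, 40 to 45 and 43 to 55 at 48 h. It gave 20 to 29, 29 to 35 and 26 to 34 between high and low doses, 34 to 40 and 20 to 26 over time and 0 to 2, 4 to 14 and 11 to 19 between the high doses. Of 343 called values of named members, 154 were the same under all alternatives run. Another 189 were weaker under at least 1, which covers calls that ended and values that moved but stayed called. When 1 rat was left out 108 were weaker, and 0 changed sign. No paired analysis was possible because rat numbers are unique to a group and none is shared between groups. Ratios without intensities leave signal over background unknown. Having 3 rats in a group limits precision, and so does a pooled control, whose own spread enters no p-value. In simulated data for 1500 mg/kg and 24 h over 17299 features, 96% of changes of log2 1 and 100% of changes of log2 -2 were called, with 5 false calls.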
